A study of Mus musculus with 24 samples.

Results

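The change of the transcriptome during the first 3 days of brown adipogenesis was followed in control cultures. It was read by comparing 3 libraries made on day 3 of differentiation (BAT siCtrl d3) with 3 libraries made on day 0 (BAT siCtrl d0). These 6 libraries were chosen by their labels from the 24 of the series, and a gene entered the comparison if its FPKM (a level per length of gene model and per mapped read, so that it is corrected for gene length and depth) was at least 1 in 3 or more of the 6. Of 49452 genes in the table, 13001 met this rule.

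All cultures were stromal-vascular fraction (SVF) cells of C57BL/6 mice, the mix of adipocyte precursors and other non-adipocyte cells that is left when fat tissue is digested and the floating adipocytes are removed. The study's methods describe donors as male mice aged 6 to 8 weeks, with brown fat pooled between animals where needed. The cells of the 6 libraries came from brown adipose tissue (BAT) and had all received a non-targeting siRNA (siCtrl) by nucleofection 48 to 72 h before use, so day 0 cells are transfected and not naive cells. For the first 48 h of differentiation BAT cultures were given indomethacin and triiodothyronine, and triiodothyronine alone after that. The labels also list a mix of insulin, dexamethasone, rosiglitazone and IBMX for that first step, and whether BAT cultures received the whole of it besides is not clear from the sources used here. Cultures of epididymal (visceral) white fat (vWAT siCtrl, d0 and d3) were given this mix and then rosiglitazone, and BAT cultures with an siRNA against the long noncoding RNA H19 (BAT siH19, d0 and d3) went through the BAT protocol. Both serve here as comparisons, with 3 libraries a group. Since no culture was kept for 3 days without the hormone mix, its effect and the time in culture cannot be told apart. The sources give 48 to 72 h from transfection to use for both days. Whether that time differed between the days is not clear from them, and if it did, it cannot be told apart either. Nothing in the labels says that replicates came from separate cultures or animals, so the p-values below measure the spread between these libraries, which may be technical.

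Brown adipocytes burn fatty acids and glucose in mitochondria whose inner membrane is made leaky to protons by uncoupling protein UCP1, so that energy is released as heat. Their precursors are fibroblast-like cells rich in collagen and actin fibres. When induced, the transcription factors C/EBPβ and C/EBPδ act early and PPARγ and C/EBPα later, the cells lose their fibres and fill with lipid droplets, and the brown lineage adds a dense mitochondrial network under PGC-1α, PRDM16 and EBF2.

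The labelled cell type held in both groups for most of its markers. On day 0 the libraries carried the precursor markers Pdgfra at 47.7, 51.9 and 50.8 FPKM, Ly6a at 552, 579 and 499 FPKM and Thy1 at 528, 554 and 507 FPKM. Cd34, another precursor marker, was low, at 3.54, 2.5 and 2.93 FPKM. On day 3 the adipocyte markers Plin1, Adipoq, Lpl and Cidec were between 1106 and 3633 FPKM in mean, and the brown markers Ucp1, Cidea, Elovl3 and Cox7a1, which had means of 0.0204 to 2.1 FPKM on day 0, had means of 12.1 to 470.0 FPKM. Day 0 cultures were not free of adipocyte RNA, since Fabp4 stood at 2006, 1906 and 2073 FPKM and Adipoq at 184, 213 and 222 FPKM before induction. Brown markers on day 3 were uneven: Elovl3 was at 431, 491 and 488 FPKM and Cox7a1 at 268, 285 and 316 FPKM, while Ucp1 was at 8.84, 11.2 and 16.3 FPKM. Dio2, another brown marker, had a mean of 5.01 FPKM on day 0 and was at 34.4, 16.1 and 6.62 FPKM on day 3. Elovl3 also reached a mean of 124 FPKM in vWAT siCtrl on day 3, so its presence alone does not set brown cells apart. In such bulk libraries, more cells of a type and more RNA per cell cannot be told apart.

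The libraries of a day were alike. Pearson's r of log2(FPKM + 1) over the tested genes was 0.9806 to 0.9846 between libraries of the same day and 0.8023 to 0.8133 between days. Summed FPKM was 710794 to 723104 on day 0 and 800852 to 823481 on day 3, and 12311 to 12657 genes reached 1 FPKM per library. Genes of the mitochondrial genome took 1.37 to 1.54% of the summed FPKM on day 0 and 6.36 to 6.73% on day 3. Read counts behind the values are unknown, so no counting interval can be given.

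Most of the tested genes changed between the days. Fold changes were fitted by limma on log2(FPKM + 1), a scale on which the change of genes near or below 1 FPKM is understated, and a gene was called at a Benjamini-Hochberg adjusted p below 0.05 and a change of at least 1.3-fold. On day 3, 3881 genes were called higher (29.9% of those tested) and 4590 lower (35.3%), and 4530 were not called. The median log2 fold change over all tested genes was -0.10. Genes that rose did so over a longer range than those that fell: 738 rose and 614 fell at least 4-fold, and 85 rose and 40 fell at least 16-fold. The 3 libraries of one day lay wholly above or below the 3 of the other for all but 2695 genes, or 20.7%. Some genes passed the level filter through 1 day alone, 577 with at least 1 FPKM in all day 0 libraries and none of day 3, and 423 the other way round.

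**Figure D1:**
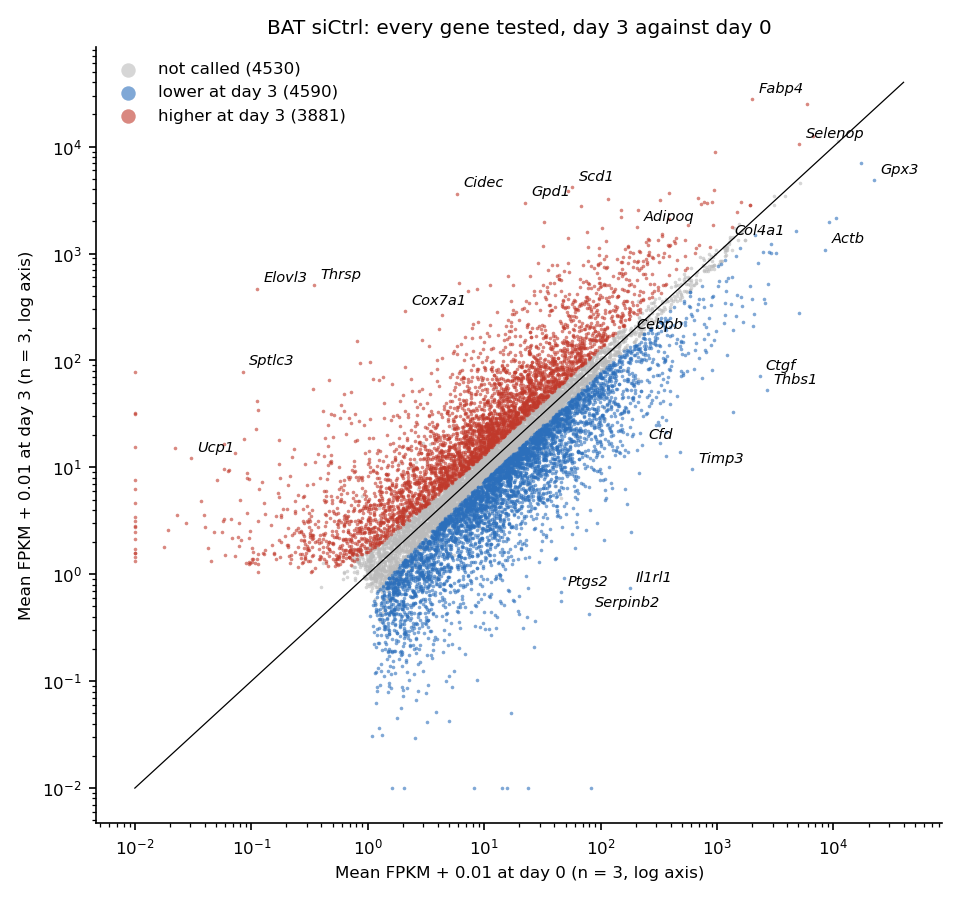
Mean FPKM on day 3 (vertical) against mean FPKM on day 0 (horizontal) for the 13001 tested genes in BAT siCtrl, each with 0.01 added so that a level of 0 can be drawn on the log axes, with called genes coloured by direction and some named. Points spread away from the diagonal on both sides, with Cidec, Elovl3 and Thrsp among those far above it and Il1rl1, Timp3 and Thbs1 among those far below.

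The adipogenic transcription factors moved in both directions. Of the 28 tested members of this list 15 (53.6%) rose, 10 (35.7%) fell and 3 were not called. Their log2 fold changes had a median of 0.54. Among all tested genes 29.9% rose and 35.3% fell, so only the share that rose was larger than among all genes. Pparg, the master regulator of fat cell differentiation, was at 42.5, 46.2 and 46.2 FPKM on day 0 and 123, 126 and 124 FPKM on day 3 (2.76-fold, log2 fold change 1.45 ± 0.0458, adjusted p = 3.5e-07; ± after a log2 fold change is its SE). Cebpa, its partner in the late phase, was at 147, 149 and 156 FPKM on day 0 and 659, 677 and 632 FPKM on day 3 (log2 fold change 2.11 ± 0.041, adjusted p = 6.1e-08). Both were expressed before induction, and the days did not overlap.

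The early factors were not higher on day 3. No library was made between day 0 and day 3, so a passing rise in that time could not be seen. Cebpb was at 183, 173 and 184 FPKM on day 0 and 169, 173 and 173 FPKM on day 3, with the ranges close together, and was not called (log2 fold change -0.07 ± 0.0371, adjusted p = 0.14). Cebpd was lower on day 3, at 12, 12.4 and 11.5 FPKM on day 0 and 5.26, 5.51 and 6.01 FPKM on day 3 (log2 fold change -0.98 ± 0.0729, adjusted p = 2.2e-05). Of the Krüppel-like factors, Klf15, which acts late in adipogenesis, rose from 1.18 to 8.84 FPKM, while Klf2, a repressor of Pparg, fell from 12.6 to 0.914 FPKM (log2 fold change -2.83 ± 0.106, adjusted p = 7.6e-07), and Klf3, Klf4 and Klf5 fell by 1.59, 1.72 and 0.76 on the log2 scale. Gata2, which holds cells in the precursor state, fell from 8.68 to 1.46 FPKM, and Egr2 (Krox20), an immediate early inducer of adipogenesis, fell from 101 to 15.8 FPKM.

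The lipogenic regulators among them gained most. Mlxipl, which encodes the glucose-sensing factor ChREBP, rose from 0.771 ± 0.297 to 31.8 ± 3.18 FPKM (mean ± SD, n = 3; log2 fold change 4.22 ± 0.14, adjusted p = 4.2e-07). Nr1h3, which encodes the sterol receptor LXRα, rose from 8.02 ± 3.07 to 122 ± 9.01 FPKM, and Srebf1, which drives fatty acid synthesis, rose from 77.5 ± 2.95 to 476 ± 14.9 FPKM (6.14-fold). Rxrg, a partner of PPARγ, rose from 0.73 ± 0.302 to 9.44 ± 0.55 FPKM.

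Genes that build, coat and empty lipid droplets made up the steepest rise of any list with 10 or more tested members when measured by summed FPKM. Of 19 tested members 17 rose and 1 fell, with a median log2 fold change of 3.38 against -0.10 over all genes, and their summed FPKM was 659 to 722 FPKM on day 0 and 12451 to 13082 FPKM on day 3, 18.7 times higher in mean. Cidec, which fuses droplets into larger ones, was at 6.44, 4.68 and 6.39 FPKM on day 0 and 3457, 3686 and 3755 FPKM on day 3 (623-fold, log2 fold change 9.06 ± 0.109, adjusted p = 1.4e-08). No named gene of the table with at least 5 FPKM on either day rose more on the log2 scale. The coat proteins Plin1 and Plin2 rose from 162 to 1106 FPKM and from 103 to 1753 FPKM, and Plin5, the coat protein of oxidative tissues, rose from 0.104 to 34.7 FPKM. The lipases rose as well, with Pnpla2 (ATGL), the first enzyme of lipolysis, from 68 ± 6.88 to 2776 ± 90.2 FPKM, Lipe from 38 ± 2.04 to 784 ± 21.5 FPKM and Mgll from 17.8 ± 1.67 to 513 ± 17.5 FPKM, together with the ATGL activator Abhd5 and the ATGL inhibitor G0s2, from 48.5 to 686 FPKM and from 88.4 to 726 FPKM. The member that fell was Hilpda, a hypoxia-inducible inhibitor of ATGL, at 19.4, 20.2 and 21.9 FPKM on day 0 and 9.4, 8.12 and 8.53 FPKM on day 3.

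**Figure D2:**
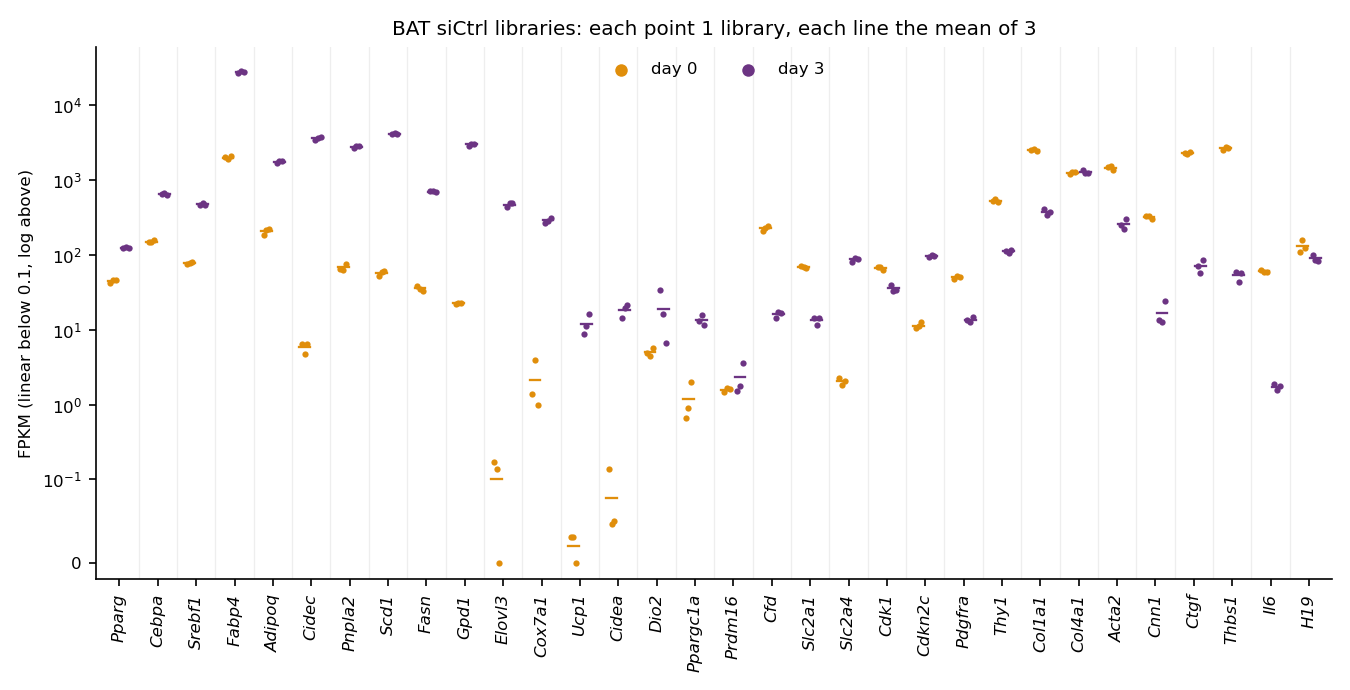
FPKM on an axis that is logarithmic above 0.1 and linear below it, in each of the 3 day 0 and 3 day 3 libraries of BAT siCtrl for 32 named genes, one point a library and a line at each mean. The libraries of a day lie close together for most genes, with the exceptions of Dio2, whose day 3 libraries run from 6.62 to 34.4 FPKM, and of genes below 0.1 FPKM on day 0.

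Fatty acid supply and triglyceride assembly rose over the same 3 days. In the list of fatty acid uptake and binding 10 of 16 tested genes rose and 4 fell (median 2.21). Fabp4, the fatty acid carrier of adipocytes, was the gene with the largest gain in FPKM of the whole table, at 2006, 1906 and 2073 FPKM on day 0 and 27184, 28419 and 27863 FPKM on day 3. It took 3.41% of the summed FPKM on day 3 against 0.278% on day 0. Acsl1, which activates fatty acids with coenzyme A, was at 55.1, 45.5 and 55.7 FPKM on day 0 and 3758, 4076 and 3791 FPKM on day 3 (74.4-fold, log2 fold change 6.19 ± 0.0829, adjusted p = 1.7e-08). Cd36, the fatty acid translocase, rose from 148 ± 16.3 to 2567 ± 48.1 FPKM, while the related ligases Acsl4 and Acsl5 fell from 33.2 to 20.4 FPKM and from 28.8 to 12.2 FPKM, and Acsl3 was at 12.1 and 12.4 FPKM on day 0 and day 3 and not called.

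In triglyceride synthesis 12 of 16 tested genes rose and 2 fell (median 2.49). Gpd1, which makes glycerol 3-phosphate, was at 22.3, 22.5 and 22.7 FPKM on day 0 and 2841, 3056 and 3079 FPKM on day 3 (133-fold, log2 fold change 6.99 ± 0.0407, adjusted p = 5.6e-09). Agpat2, the acyltransferase lost in a congenital lipodystrophy, was at 34.1, 29.3 and 33.9 FPKM on day 0 and 1856, 2061 and 2051 FPKM on day 3 (61.4-fold). Gpat3, Dgat1 and Dgat2, other acyltransferases of the same route, rose from 3.36 to 136 FPKM, from 34.5 to 491 FPKM and from 10.4 to 102 FPKM. The isoforms were not alike, since Agpat4 and Lpin3 fell from 33.1 to 16.9 FPKM and from 11.2 to 1.7 FPKM, and Agpat5 and Lpin2 were not called.

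In de novo lipogenesis 14 of 17 tested genes rose and 1, Elovl1, fell (median 3.46). Scd1, which desaturates stearate, was at 52.1, 58.9 and 60.3 FPKM on day 0 and 4135, 4238 and 4128 FPKM on day 3 (73-fold), and Fasn rose from 35.6 ± 2.86 to 698 ± 13.4 FPKM. Thrsp (Spot 14), a thyroid hormone-responsive lipogenic protein, was at 0.324, 0.41 and 0.266 FPKM on day 0 and 411, 546 and 567 FPKM on day 3 (log2 fold change 8.56 ± 0.128, adjusted p = 2.6e-08). Acly, the entry enzyme of the route, rose less, from 71.8 ± 1.97 to 153 ± 12.9 FPKM (2.13-fold). In cholesterol synthesis 14 of 23 tested genes rose and 3 fell (median 0.69), with Dhcr7 the largest rise (from 17.5 to 295 FPKM).

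Secreted adipocyte proteins and glucose handling changed in a more mixed way. In the list of adipokines 10 of 16 tested members (62.5%) rose and 5 (31.2%) fell (median 1.83), beside 29.9% and 35.3% of all tested genes. The share that fell was thus no larger than among all genes. Adiponectin (Adipoq) was at 184, 213 and 222 FPKM on day 0 and 1685, 1805 and 1791 FPKM on day 3 (8.54-fold, log2 fold change 3.09 ± 0.0738, adjusted p = 1.2e-07), and Retn, Adig, Lcn2 and Nrg4 rose from 7.63 to 81 FPKM, from 32.2 to 504 FPKM, from 6.31 to 144 FPKM and from 2.04 to 20.9 FPKM. Leptin (Lep) was at no more than 0.128 FPKM in mean on either day and was not tested. Cfd (adipsin), a complement factor that mature fat cells secrete, went the other way, at 207, 227 and 244 FPKM on day 0 and 14.6, 17.2 and 16.5 FPKM on day 3 (log2 fold change -3.73 ± 0.0825, adjusted p = 8.8e-08), with no overlap of the days. Angiotensinogen (Agt) and apolipoprotein E (Apoe) also fell, from 111 to 58.7 FPKM and from 779 to 221 FPKM.

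The glucose transporter genes changed places. Slc2a4, which encodes the insulin-responsive transporter GLUT4, was at 2.25, 1.84 and 2.09 FPKM on day 0 and 80.5, 91.6 and 89.4 FPKM on day 3 (log2 fold change 4.85 ± 0.0795, adjusted p = 3.6e-08), whereas Slc2a1, which encodes the basal transporter GLUT1, was at 70.7, 68.1 and 66 FPKM on day 0 and 14.3, 11.6 and 14.6 FPKM on day 3 (log2 fold change -2.26 ± 0.0888, adjusted p = 9.4e-07). Of the other glycolysis genes Aldoa rose from 726 to 2903 FPKM and Hk1 fell from 29.6 to 17.3 FPKM, and the list had 13 of 18 tested members higher, 3 lower and a median of 0.76. In the insulin and IGF pathway 8 of 24 (33.3%) rose and 11 (45.8%) fell, beside 29.9% and 35.3% of all tested genes. The insulin receptor gene Insr rose from 5.72 to 25.2 FPKM while the IGF-1 receptor gene Igf1r fell from 12.2 to 2.26 FPKM, and 6 IGF-binding protein genes (Igfbp2, Igfbp3, Igfbp4, Igfbp5, Igfbp6 and Igfbp7) fell, Igfbp4 most, from 1175 ± 17.7 to 264 ± 17.8 FPKM.

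Of 16 tested brown fat effector genes 13 rose and 2 fell, with a median log2 fold change of 3.19. Their summed FPKM was 245 to 252 FPKM on day 0 and 1199.7 to 1352 FPKM on day 3. Elovl3, which elongates very long chain fatty acids in brown fat, was at 0.169, 0.136 and 0 FPKM on day 0 and 431, 491 and 488 FPKM on day 3 (log2 fold change 8.74 ± 0.0848, adjusted p = 1.1e-08). Cox7a1, the heart and muscle form of a cytochrome oxidase subunit, was at 1.37, 3.93 and 1.0 FPKM on day 0 and 268, 285 and 316 FPKM on day 3 (138-fold, log2 fold change 6.66 ± 0.321, adjusted p = 2.5e-06). Cpt1b, the muscle form of the enzyme that lets fatty acids into mitochondria, was at 0.53, 0.383 and 1.47 FPKM on day 0 and 148, 148 and 165 FPKM on day 3 (log2 fold change 6.48 ± 0.213, adjusted p = 4.1e-07). All 3 genes were at no more than 2.1 FPKM in mean on day 0, and their day 3 libraries lay close together.

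Ucp1 itself was at 0.0304, 0.0307 and 0 FPKM on day 0 and 8.84, 11.2 and 16.3 FPKM on day 3 (log2 fold change 3.64 ± 0.199, adjusted p = 4.6e-06), and Cidea, a droplet protein of brown adipocytes, was at 0.136, 0.0458 and 0.0496 FPKM on day 0 and 14.2, 19.5 and 21.6 FPKM on day 3 (log2 fold change 4.16 ± 0.155, adjusted p = 7.3e-07). Both were near 0 before induction and rose in each library, but to levels far below those of Elovl3 or Cox7a1. Dio2, the deiodinase that makes active thyroid hormone in the cell, was at 4.87, 4.44 and 5.71 FPKM on day 0 and 34.4, 16.1 and 6.62 FPKM on day 3. Its day 3 libraries spread more widely than those of the other effectors and its call was weak (log2 fold change 1.47 ± 0.511, adjusted p = 0.034): it was lost with the spread estimated from all 24 libraries (adjusted p = 0.07) and when any one library but day 3 replicate 3 was left out (adjusted p = 0.052 to 0.082). The members that fell were Ckb, the creatine kinase of a futile energy cycle, at 211, 200.4 and 205 FPKM on day 0 and 14.4, 13.7 and 15.1 FPKM on day 3, and Acot11, from 3.06 to 1.73 FPKM. With day 3 replicate 1 left out, 8 of 12 tested effector genes were called higher in place of 13 of 16. Fewer genes then reached 1 FPKM in 3 libraries, and Dio2 lost its call. Effectors below 1 FPKM in all day 0 libraries, such as Ucp1, Cidea and Elovl3, entered the comparison through day 3 alone. For them a rise was set by the filter, so the count of rises is no test.

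The regulators of the brown lineage had a smaller median change than its effectors. Of 19 tested regulators 10 rose, 4 fell and 5 were not called (median 0.54), and their summed FPKM was only 1.28 times higher on day 3. The coactivator genes Ppargc1a and Ppargc1b rose most, Ppargc1a from 0.658, 0.915 and 1.99 FPKM to 13.1, 15.8 and 11.6 FPKM (log2 fold change 2.77 ± 0.232, adjusted p = 4e-05) and Ppargc1b from 0.442 ± 0.0335 to 15.9 ± 0.525 FPKM. Esrra, the nuclear receptor they act through, rose from 25.8 ± 0.542 to 96 ± 4.24 FPKM, and Ppara from 1.02 to 18.8 FPKM. Prdm16, Zic1 and Lhx8, by contrast, were not called. Prdm16 was at 1.47, 1.67 and 1.6 FPKM on day 0 and 1.53, 1.78 and 3.62 FPKM on day 3 (log2 fold change 0.31 ± 0.225, adjusted p = 0.25), Zic1 at 3.91, 4.17 and 4.66 FPKM on day 0 and 4.42, 2.96 and 2.78 FPKM on day 3 (log2 fold change -0.27 ± 0.153, adjusted p = 0.14) and Lhx8 at 10.7, 12.7 and 11 FPKM on day 0 and 12.8, 12.3 and 10.9 FPKM on day 3 (log2 fold change 0.06 ± 0.0915, adjusted p = 0.57). Their ranges on the 2 days overlapped or nearly touched, and Ebf2 rose by a modest margin, from 8.24 ± 0.679 to 12.5 ± 0.424 FPKM (log2 fold change 0.55 ± 0.0764, adjusted p = 0.00057). For the uncalled genes a p above the threshold does not show that the days were alike.

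Receptors and hormone-responsive genes were read next, though which of the listed agents the BAT medium held is not clear. Among 29 tested genes of adrenergic and cAMP signalling 14 (48.3%) rose and 10 (34.5%) fell, beside 29.9% and 35.3% of all tested genes. The adipocyte receptor gene Adrb3 was at 11.8, 12.8 and 15.5 FPKM on day 0 and 38.8, 44.2 and 46.4 FPKM on day 3 (3.23-fold, log2 fold change 1.62 ± 0.113, adjusted p = 1.5e-05) and Adrb1 was not called (log2 fold change 0.09 ± 0.119, adjusted p = 0.49). The protein kinase A subunit gene Prkar2b and the insulin-activated phosphodiesterase gene Pde3b rose from 70.2 to 543 FPKM and from 6.9 to 167 FPKM. Glucocorticoid-responsive genes rose in 12 of 17 tested members, with 3 falling (median 1.39), among them the metallothioneins Mt1 and Mt2, from 106 to 894 FPKM and from 179 to 1042 FPKM, and Zbtb16, from 0.426, 0.44 and 0.563 FPKM to 11.4, 10.8 and 10.4 FPKM. Fkbp5, a feedback inhibitor of the glucocorticoid receptor, was at 18.1, 16.7 and 18.5 FPKM on day 0 and 52.5, 45.1 and 47.8 FPKM on day 3. Of 9 tested thyroid hormone-responsive genes 6 rose, counts that fell to 2 or 3 when a day 3 library was left out and fewer low genes were tested. Dio3, which inactivates thyroid hormone and is an imprinted gene, fell from 88.5 ± 11.6 to 9.39 ± 1.22 FPKM (log2 fold change -3.11 ± 0.12, adjusted p = 8.6e-07).

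PPARγ targets rose in 18 of 19 tested members and fell in none, with a median log2 fold change of 3.64. This list shares members with the lipid lists above. AGGTCA, the core letters of a nuclear receptor element, were searched on both strands of the RefSeq promoters (from 250 bases before to 50 bases after a gene's start, GRCm38.p6). They were in the promoter of 5 of the 14 target genes with one (35.7%) and of 14.5% of the 9438 tested genes with one. The Ucp1 promoter (chr8:83290098-83290397, + strand), shown because Ucp1 is both a target and the defining brown gene, has a match 14 bases before the start, set in capitals. Neither of the 2 promoters read for Cidec, the largest rise of the list, holds the letters.
Ucp1: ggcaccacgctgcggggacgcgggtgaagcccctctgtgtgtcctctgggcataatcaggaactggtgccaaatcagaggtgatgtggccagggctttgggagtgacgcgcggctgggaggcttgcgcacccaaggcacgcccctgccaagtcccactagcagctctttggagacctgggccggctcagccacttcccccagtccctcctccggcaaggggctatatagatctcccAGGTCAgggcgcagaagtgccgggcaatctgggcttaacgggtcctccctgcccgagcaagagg

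Genes of mitochondria rose almost without exception. For the respiratory chain and ATP synthase, 36 of 37 tested complex I genes rose, with 4 of 4 of complex II, 9 of 9 of complex III, 14 of 16 of complex IV and 15 of 15 of complex V. The median log2 fold changes of these lists lay between 1.74 and 2.42. Sdhb of complex II rose from 66.9 ± 2.37 to 336 ± 14.6 FPKM, Uqcrfs1 of complex III from 66.6 ± 2.66 to 580.1 ± 24.8 FPKM, Cox5a of complex IV from 148 ± 5.68 to 831 ± 32.8 FPKM and Atp5b of complex V from 943 ± 40.3 to 3949 ± 177 FPKM. The tissue-specific subunits Cox7a1 and Cox8b, which rose 138-fold and 37.5-fold, stood apart from the ubiquitous ones. The member of the complex I list that fell was Ndufa4l2, a hypoxia-induced relative of Ndufa4 that is no part of the core complex, from 2.39 to 1.44 FPKM. Cox4i2 and Cox6a2, tissue-restricted isoforms of complex IV, were not called.

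The genes encoded in the mitochondrial genome rose as well. All 13 protein-coding genes rose, with a median log2 fold change of 2.1 and a summed FPKM of 9534 to 10608 FPKM on day 0 and 46101 to 50225 FPKM on day 3. mt-Nd1 was at 1029.8, 876 and 975 FPKM on day 0 and 8336, 9265 and 8953 FPKM on day 3 (log2 fold change 3.2 ± 0.0693, adjusted p = 8.1e-08) and mt-Cytb rose from 902 ± 107 to 3043 ± 142 FPKM. Levels differed widely between these genes on either day, from 1.48 and 4.29 FPKM for mt-Co3 to 5955 and 25200.4 FPKM for mt-Atp8 on day 0 and day 3. Their models are short, abut or overlap, and FPKM cannot share out reads between them reliably, so the levels are not compared with each other. The machinery that translates them rose too, with 74 of 78 tested mitochondrial ribosome genes higher and none lower, at a smaller median of 1.32. Cytosolic ribosomal protein genes had a median of -0.18, with 3 of 74 higher and 9 lower, and the count of lower genes was 5 under median-ratio scaling and 14 without day 0 replicate 3 or day 3 replicate 3.

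**Figure D3:**
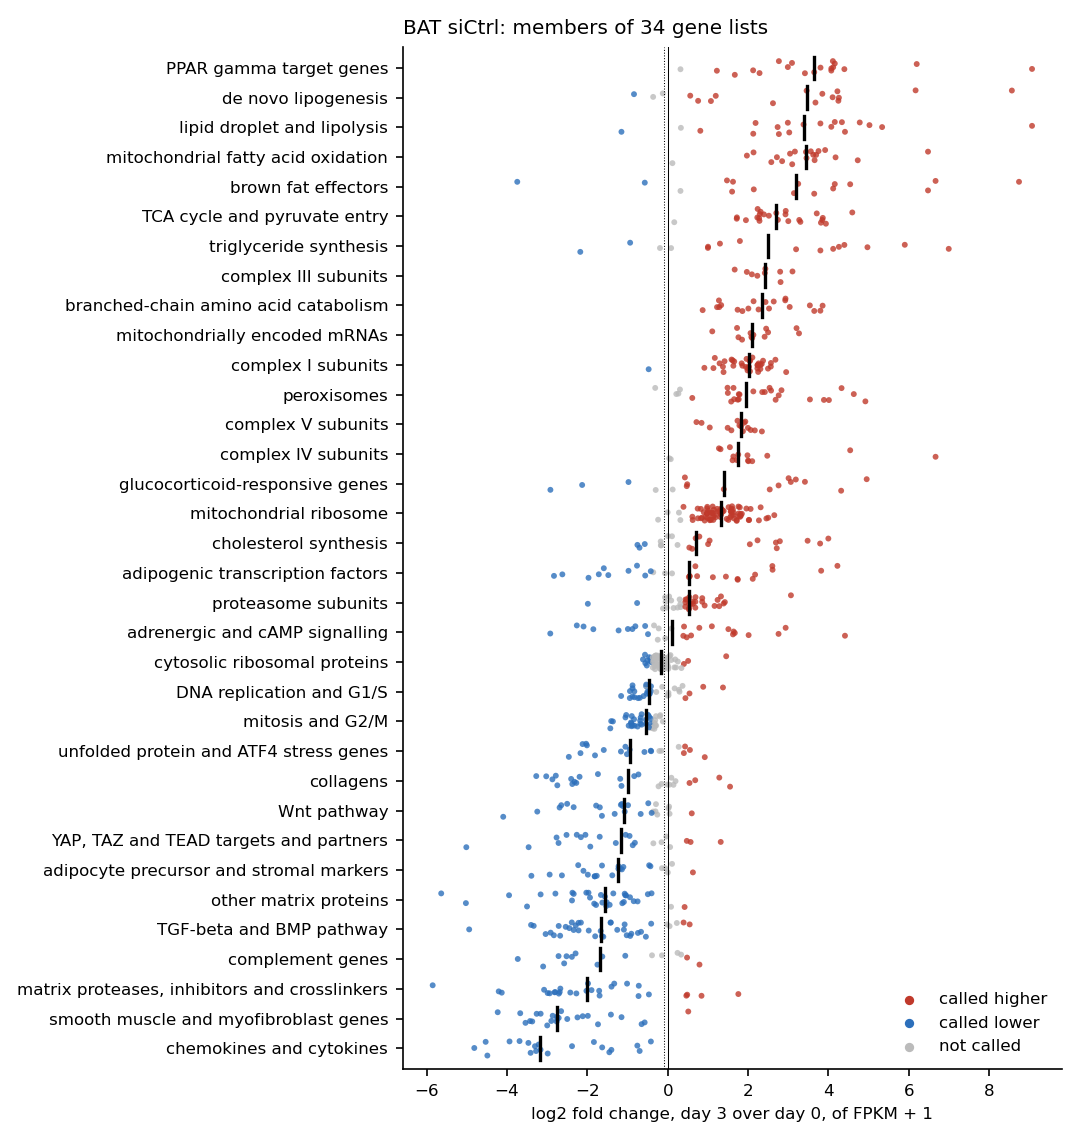
Log2 fold change from day 0 to day 3 in BAT siCtrl (horizontal) of the tested members of 34 gene lists, one point a gene coloured by its call, with a black bar at the median of each list. The solid line stands at 0 and the dotted line at the median of all tested genes, -0.10. Lipid and mitochondrial lists lie to the right, and matrix, smooth muscle, TGF-beta and chemokine lists to the left.

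Catabolic routes rose along with the respiratory chain they feed. In fatty acid oxidation 19 of 20 tested genes rose, with a median log2 fold change of 3.45 and a summed FPKM 10.4 times higher on day 3. Acadm, the medium-chain dehydrogenase, rose from 52.1 ± 6.21 to 1401 ± 47.9 FPKM, and Acadl and Hadha rose from 41.9 to 773 FPKM and from 99 to 822 FPKM. The carnitine palmitoyltransferases split by isoform, as Cpt1a, the liver form, was at 10.3 and 11.3 FPKM on day 0 and day 3 and not called (log2 fold change 0.12 ± 0.072, adjusted p = 0.18), while Cpt1b rose 194-fold. In the TCA cycle and pyruvate entry 24 of 25 rose (median 2.7), led by Pcx, the anaplerotic pyruvate carboxylase, from 24.7 ± 1.97 to 618 ± 18.1 FPKM (log2 fold change 4.59 ± 0.0614, adjusted p = 1.7e-08). The exception was Idh2, at 68 and 76.1 FPKM, which was not called.

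All 20 tested genes of branched-chain amino acid catabolism rose (median 2.35), with the first enzyme Bcat2 highest, from 30.1 ± 3.18 to 447 ± 21.8 FPKM (log2 fold change 3.85 ± 0.0819, adjusted p = 7.8e-08). Peroxisomal genes rose in 24 of 28 tested members (median 1.96). Ehhadh, an enzyme of peroxisomal β-oxidation, rose from 1.34 ± 0.0305 to 69.9 ± 3.37 FPKM, and the organelle factor Pex16 rose from 17.3 to 270.4 FPKM.

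Genes of cell division fell, but by far less than lipid genes rose. Of 41 tested genes of mitosis and G2/M 28 fell and none rose, with a median log2 fold change of -0.54, and their summed FPKM was 582 to 604 FPKM on day 0 and 338 to 379 FPKM on day 3. Cdk1, the kinase that drives entry into mitosis, was at 68.7, 69.1 and 63.6 FPKM on day 0 and 39.9, 32.5 and 34.4 FPKM on day 3 (log2 fold change -0.90 ± 0.0816, adjusted p = 6e-05). Top2a, the topoisomerase of condensing chromosomes, was at 23.5, 20.3 and 23.8 FPKM on day 0 and 16.7, 15.1 and 16.4 FPKM on day 3 (log2 fold change -0.46 ± 0.0797, adjusted p = 0.0016), and its call was lost under median-ratio scaling of the libraries. Mki67, the proliferation marker Ki-67, was at 5.3, 5.77 and 5.4 FPKM on day 0 and 4.42, 3.12 and 2.99 FPKM on day 3, and Ccnb1 was at 13, 12.3 and 14 FPKM on day 0 and 10, 11.1 and 9.38 FPKM on day 3 and not called (log2 fold change -0.34 ± 0.0829, adjusted p = 0.0082). Foxm1, the transcription factor of the mitotic programme, fell from 13.9 ± 1.79 to 4.6 ± 0.443 FPKM, and Plk4, which starts centriole duplication, fell from 16.3 ± 3.35 to 5.36 ± 0.678 FPKM. Mitotic RNAs were thus still present on day 3, at 0.602 of their day 0 sum.

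In DNA replication and G1/S 20 of 34 tested genes fell and 4 rose (median -0.46). Mcm3, Mcm5 and Mcm6 of the replicative helicase fell from 16.6 to 6.91 FPKM, from 15.5 to 8.91 FPKM and from 26 to 13.2 FPKM, while Mcm7 of the same helicase rose from 20.6 to 28.3 FPKM. Ccne1 and E2f2, which promote entry into S phase, also rose, from 13.2 to 25 FPKM and from 1.02 to 4.1 FPKM. Among cyclins D and CDK inhibitors, Ccnd1 fell from 28.5, 28.8 and 28.7 FPKM to 12.1, 6.27 and 7.9 FPKM (log2 fold change -1.65 ± 0.201, adjusted p = 0.00027), and Cdkn2c, which encodes the CDK4 and CDK6 inhibitor p18, rose from 10.4, 11.1 and 12.5 FPKM to 94, 99.9 and 96 FPKM (log2 fold change 2.99 ± 0.0707, adjusted p = 1.1e-07). Cdkn1a (p21) was high on both days, at 256, 259.8 and 249 FPKM on day 0 and 329, 314 and 335 FPKM on day 3, and did not reach 1.3-fold (log2 fold change 0.35 ± 0.0378, adjusted p = 0.00014), though it did under median-ratio scaling.

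The promoters of these genes are shown because the lists moved together and carry known sequence elements, namely the CCAAT box of NF-Y and the CHR element (TTTGAA or TTCGAA) in mitotic genes and E2F octamers in replication genes. CCAAT was found on either strand in 26 of 33 mitotic genes with a promoter (78.8%) and in 43.1% of all tested genes with one, and TTTGAA or TTCGAA in 25 of 33 (75.8%) and in 16.2% of all. An E2F octamer (TTTGGCGC, TTTCGCGC, TTTCCCGC or TTTGCCGC) was in 12 of 28 replication genes (42.9%) and in 4.75% of all. Such matches describe the letters and not binding. In the following promoters, written 5′ to 3′ on the gene's own strand, capitals mark CCAAT boxes and CHR elements on either strand in Cdk1 (chr10:69352863-69353162, - strand) and Top2a (chr11:99024140-99024439, - strand), and E2F octamers on either strand, which overlap in part, in Mcm6 (chr1:128359656-128359955, - strand) and Mcm5 (chr8:75109259-75109558, + strand).
Cdk1: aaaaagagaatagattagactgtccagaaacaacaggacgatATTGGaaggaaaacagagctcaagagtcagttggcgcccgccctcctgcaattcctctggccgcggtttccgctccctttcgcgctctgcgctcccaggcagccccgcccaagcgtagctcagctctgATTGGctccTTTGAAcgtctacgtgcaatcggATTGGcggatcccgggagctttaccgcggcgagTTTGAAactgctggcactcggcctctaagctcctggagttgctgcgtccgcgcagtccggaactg
Top2a: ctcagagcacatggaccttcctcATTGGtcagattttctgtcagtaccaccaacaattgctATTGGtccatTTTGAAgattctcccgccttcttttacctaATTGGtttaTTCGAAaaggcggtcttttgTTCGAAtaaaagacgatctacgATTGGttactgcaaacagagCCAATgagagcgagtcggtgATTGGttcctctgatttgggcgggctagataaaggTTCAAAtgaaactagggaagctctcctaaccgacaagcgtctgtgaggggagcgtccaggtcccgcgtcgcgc
Mcm6: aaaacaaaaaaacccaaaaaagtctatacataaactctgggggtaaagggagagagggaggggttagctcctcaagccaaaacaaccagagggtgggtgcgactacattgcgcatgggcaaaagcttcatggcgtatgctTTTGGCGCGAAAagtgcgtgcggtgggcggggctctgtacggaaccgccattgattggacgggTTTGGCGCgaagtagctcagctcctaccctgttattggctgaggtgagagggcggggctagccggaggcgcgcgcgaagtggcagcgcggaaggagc
Mcm5: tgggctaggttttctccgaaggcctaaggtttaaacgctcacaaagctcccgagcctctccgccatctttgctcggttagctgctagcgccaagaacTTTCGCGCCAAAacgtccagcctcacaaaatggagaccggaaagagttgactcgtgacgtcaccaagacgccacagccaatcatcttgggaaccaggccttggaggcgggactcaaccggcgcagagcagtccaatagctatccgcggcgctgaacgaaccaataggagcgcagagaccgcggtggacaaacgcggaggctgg
Cdk1 held 3 CCAAT and 2 CHR matches and Top2a 6 and 4, and the octamers numbered 3 in Mcm6 and 2 in Mcm5.

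Most extracellular matrix genes fell, while the main chains of basement membrane collagen were not called. Of 26 tested collagens 15 fell, 4 rose and 7 were not called (median -0.99), and the summed FPKM of the list was 17688 to 18718 FPKM on day 0 and 6235 to 6824 FPKM on day 3. Of the fibrillar collagens, those of the highest levels on day 0 fell, Col1a1 at 2515, 2599.9 and 2414 FPKM on day 0 and 411, 341 and 369 FPKM on day 3 (log2 fold change -2.75 ± 0.0708, adjusted p = 1.5e-07) and Col3a1 at 9045, 9429.9 and 8809.7 FPKM on day 0 and 2109, 1919 and 1936 FPKM on day 3 (log2 fold change -2.19 ± 0.0485, adjusted p = 8.8e-08). Col5a1 and Col5a2, which nucleate those fibrils, fell from 396 to 81.1 FPKM and from 647 to 124 FPKM. Col4a1 and Col4a2, the main chains of the basement membrane that surrounds fat cells, did not reach 1.3-fold, Col4a1 at 1203, 1299 and 1271 FPKM on day 0 and 1372, 1261 and 1251 FPKM on day 3 (log2 fold change 0.04 ± 0.0496, adjusted p = 0.47) and Col4a2 at 309.9, 305 and 298 FPKM on day 0 and 295, 273 and 253 FPKM on day 3 (log2 fold change -0.15 ± 0.0587, adjusted p = 0.047). Col15a1, which lies beside basement membranes, was at 281, 269.6 and 275 FPKM on day 0 and 319, 287 and 307 FPKM on day 3 and not called either. The genes that rose were Col5a3, from 132 to 323 FPKM, Col6a3, from 163 to 239 FPKM, Col7a1 and Col11a2, while Col6a1 and Col6a2 stayed below 1.3-fold.

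**Figure D4:**
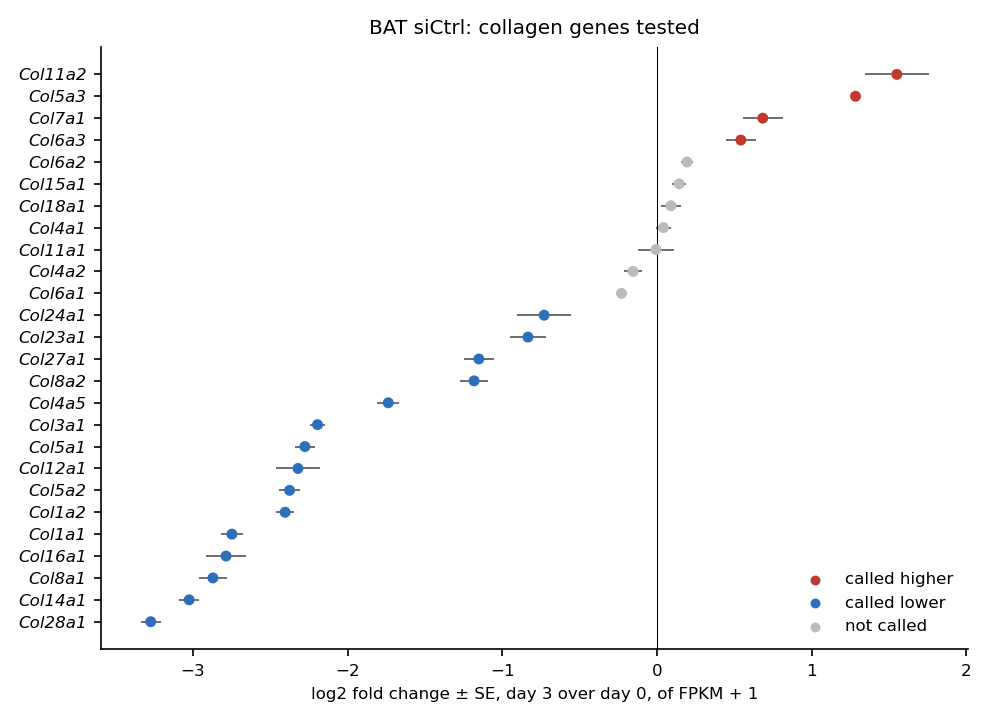
Log2 fold change from day 0 to day 3 in BAT siCtrl (horizontal) of the 26 tested collagen genes, sorted by its size, with bars of 1 SE and the colour showing the call. Col28a1 lies at the low end and Col11a2 at the high end, and the uncalled Col4a1, Col4a2 and Col15a1 lie near the line at 0.

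Of 33 other matrix proteins 31 fell and 1, the laminin gene Lamb1, rose (median -1.56). Thbs1, thrombospondin 1, an activator of latent TGF-beta, was at 2561, 2725 and 2723 FPKM on day 0 and 59.1, 43 and 57.4 FPKM on day 3 (50.2-fold lower, log2 fold change -5.64 ± 0.119, adjusted p = 7.6e-08). Tnc, tenascin C of healing and stiff matrix, was at 477, 508 and 468 FPKM on day 0 and 15.7, 11.3 and 15.2 FPKM on day 3 (34.4-fold lower), and fibronectin (Fn1) fell from 1149 ± 115 to 222 ± 36.3 FPKM. Postn, an adhesion protein of the matrix, fell less than those, from 326 ± 5.72 to 232 ± 19.6 FPKM. Matrix proteases, their inhibitors and crosslinkers fell in 24 of 28 tested members and rose in 4 (median -2.0). Timp3, a matrix-bound protease inhibitor, was at 607, 625 and 610.4 FPKM on day 0 and 10.1, 9.07 and 9.91 FPKM on day 3 (63.4-fold lower, log2 fold change -5.85 ± 0.0476, adjusted p = 1.1e-08) and Lox, the collagen crosslinker, fell from 2072 ± 15.9 to 270.4 ± 25.4 FPKM. The proteases Mmp3, Mmp15, Mmp19 and Adamts15 rose, Adamts15 from 2.0 to 9.17 FPKM.

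Genes of the contractile cytoskeleton fell too. Of 25 smooth muscle and myofibroblast genes 24 fell and 1 rose (median -2.75), and their summed FPKM was 10812 to 11259.5 FPKM on day 0 and 1515 to 1886 FPKM on day 3. Acta2, smooth muscle α-actin, was at 1495, 1519 and 1369 FPKM on day 0 and 249, 224 and 305 FPKM on day 3 (log2 fold change -2.5 ± 0.112, adjusted p = 1.7e-06), Tagln at 1726, 1709.9 and 1579.9 FPKM on day 0 and 229, 194 and 269 FPKM on day 3 (log2 fold change -2.86 ± 0.114, adjusted p = 1e-06) and Cnn1, calponin, at 329, 333 and 304 FPKM on day 0 and 13.6, 12.8 and 24.2 FPKM on day 3 (log2 fold change -4.23 ± 0.223, adjusted p = 3.9e-06). Srf, the transcription factor of actin genes, and its coactivator gene Mkl1 fell as well, from 45.4 to 9.7 FPKM and from 22.3 to 6.0 FPKM. The member that rose was Mylk, the myosin light chain kinase, from 7.75 to 11.5 FPKM. Actb, a cytoskeletal actin often used as a reference gene, fell from 8535 ± 209 to 1086 ± 62.2 FPKM (7.86-fold, log2 fold change -2.97 ± 0.0483, adjusted p = 3.6e-08).

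Signalling genes of the precursor state fell along with the matrix and contractile genes. In the list of YAP, TAZ and TEAD targets and partners 15 of 22 fell and 3 rose (median -1.17). Ctgf, a mechanosensitive target, was at 2335, 2253 and 2362 FPKM on day 0 and 71.6, 57.3 and 86.5 FPKM on day 3 (32.3-fold lower, log2 fold change -5.01 ± 0.136, adjusted p = 1.9e-07), and Cyr61, another, was at 936, 863 and 904 FPKM on day 0 and 81.5, 71.1 and 91.2 FPKM on day 3 (log2 fold change -3.46 ± 0.0891, adjusted p = 1.5e-07). Yap1 was not called at 1.3-fold, 39 and 30.2 FPKM on day 0 and day 3, and Wwtr1, which encodes TAZ, rose from 31.4 to 47 FPKM. Dlc1, a GTPase-activating protein that restrains actin fibres, rose from 55.4 to 139.7 FPKM.

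In the TGF-beta and BMP pathway 33 of 38 tested genes fell and 2 rose (median -1.65). The ligand gene Tgfb1 was at 88.7, 85 and 83.3 FPKM on day 0 and 10.2, 8.74 and 9.77 FPKM on day 3 (log2 fold change -3.04 ± 0.0648, adjusted p = 7.9e-08), and Inhba, which encodes activin A, a factor that keeps precursors dividing, was at 160.2, 173 and 169.9 FPKM on day 0 and 4.54, 4.19 and 4.77 FPKM on day 3 (37.3-fold lower). The type I receptor gene Tgfbr1 and the feedback inhibitor Smad7 fell from 50.1 to 9.07 FPKM and from 59.5 to 10.1 FPKM, while Smad2 and Bmpr1a were not called. In the Wnt pathway 18 of 26 fell and 1 rose (median -1.09). Wnt5a and Wnt11, noncanonical ligands, fell from 40.2 ± 1.88 to 11 ± 1.44 FPKM and from 21.8 to 3.52 FPKM, and Wisp1, a Wnt-induced matricellular protein, fell from 63.2 ± 2.4 to 2.78 ± 0.469 FPKM (log2 fold change -4.09 ± 0.0994, adjusted p = 1.2e-07). Wnt10b, the ligand known for holding back adipogenesis, was at no more than 0.0759 FPKM in mean on either day and was not tested. Sfrp1 and Sfrp2, secreted Wnt inhibitors, fell too, Sfrp1 from 294, 301 and 297 FPKM to 44.4, 42.4 and 49.2 FPKM and Sfrp2 from 221 ± 4.83 to 34.5 ± 4.18 FPKM. The transcription effectors Tcf7l1 and Tcf7l2 and the frizzled receptors Fzd1, Fzd2, Fzd5 and Fzd7 were among those that fell.

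Precursor and stromal markers fell in 18 of 23 tested members and rose in 1 (median -1.23). Pdgfra was at 13.3, 12.7 and 14.7 FPKM on day 3 (log2 fold change -1.81 ± 0.0687, adjusted p = 7.9e-07), Dlk1 (Pref-1), which holds back adipogenesis, was at 51, 41.7 and 43.8 FPKM on day 0 and 13.7, 8.7 and 10.2 FPKM on day 3 (log2 fold change -1.99 ± 0.159, adjusted p = 3.1e-05), and Cd44, a hyaluronan receptor, fell from 162 ± 4.87 to 14.6 ± 1.42 FPKM (log2 fold change -3.39 ± 0.0728, adjusted p = 7.9e-08). Igf2, the imprinted growth factor next to H19, fell from 37.4, 46.4 and 43.8 FPKM to 15.4, 13.1 and 15.2 FPKM (log2 fold change -1.48 ± 0.10, adjusted p = 1.3e-05). The targeted RNA of the other BAT cultures, H19, was at 108, 160.4 and 122 FPKM on day 0 and 99.7, 86.4 and 83.2 FPKM on day 3 in these control libraries (log2 fold change -0.52 ± 0.149, adjusted p = 0.017), and its call was lost without day 0 replicate 2 (log2 fold change -0.358) and without day 3 replicate 2 or 3 (adjusted p = 0.05 and 0.053).

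Inflammatory genes fell steeply. All 20 tested chemokines and cytokines fell, with a median log2 fold change of -3.19 and a summed FPKM of 3356 to 3538 FPKM on day 0 and 331 to 386 FPKM on day 3. Il6 was at 63.8, 58.7 and 58.8 FPKM on day 0 and 1.91, 1.57 and 1.75 FPKM on day 3 (log2 fold change -4.49 ± 0.073, adjusted p = 3.6e-08), and Ccl2, the chemokine that draws monocytes, was at 177, 155 and 159 FPKM on day 0 and 7.78, 4.78 and 6.06 FPKM on day 3 (log2 fold change -4.53 ± 0.15, adjusted p = 4.2e-07). Ptgs2, which encodes the inducible cyclooxygenase, was at 51.9, 44.5 and 41.5 FPKM on day 0 and 0.574, 0.872 and 0.562 FPKM on day 3, and Csf1, the macrophage growth factor, fell from 2056 ± 86.7 to 212 ± 20.4 FPKM. Il1rl1, the receptor of interleukin 33, was at 171, 176 and 186 FPKM on day 0 and 1.04, 0.36 and 0.806 FPKM on day 3 (241-fold lower, log2 fold change -6.7 ± 0.147, adjusted p = 8.8e-08), the largest fall on the log2 scale among named genes of at least 5 FPKM, and Il33 fell from 6.55 to 1.79 FPKM.

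Interferon-stimulated genes fell in 15 of 17 tested members (median -1.09), with Isg15 at 11.7, 15.8 and 11 FPKM on day 0 and 2.29, 1.4 and 1.95 FPKM on day 3. Complement genes fell in 10 of 16 tested members and rose in 2 (median -1.69). Cfb and Serping1 fell from 67.3 to 7.08 FPKM and from 507 to 76.2 FPKM, while C1qa and C1qc, which macrophages make, rose from 4.45 to 8.41 FPKM and from 4.15 to 6.11 FPKM.

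Markers of other cells that the SVF can hold were measured as well. Macrophage and leukocyte markers summed to 192 to 241 FPKM on day 0 and 173 to 209 FPKM on day 3, most of it Lyz2 at 121 and 128 FPKM, with 9 of 14 tested members lower and 2 higher, and the pan-leukocyte marker Ptprc was at 0.766 and 0.353 FPKM in mean. Endothelial markers summed to 37.4 to 40.6 FPKM on day 0 and 36.6 to 43.5 FPKM on day 3, with Pecam1 and Cdh5 falling from 3.3 to 1.35 FPKM and from 2.14 to 0.74 FPKM and Egfl7 rising from 17.6 to 33.4 FPKM. Without any one day 0 library the count of endothelial markers called lower was 2 and not 5. Only 3 or 4 of them were then tested in place of 7, since fewer low genes passed the filter. Skeletal muscle genes summed to 419 to 701 FPKM on day 0 and 277 to 306 FPKM on day 3, of which Mylpf made up 366 and 191 FPKM, with 9 of 14 lower and none higher, a count that was 5 without day 0 replicate 2 or day 3 replicate 3. Myog and Myod1, regulators of muscle differentiation, fell from 14.3 to 8.92 FPKM and from 3.47 to 1.75 FPKM, and Actc1, an actin of striated muscle, fell from 32.8 to 11.7 FPKM. Tnnt3, a muscle troponin, was at 36.7 and 28.4 FPKM on day 0 and day 3 and not called. The satellite cell markers Pax7 and Myf5 were at no more than 0.299 FPKM in mean. Of the mural cell markers Cspg4 and Notch3 fell from 8.18 to 3.46 FPKM and from 7.88 to 5.55 FPKM and Mcam rose from 26.3 to 60.4 FPKM. Hemoglobin genes were listed at 0 in all 6 libraries, and mesothelial, epithelial, Schwann cell and neuronal markers were below 6 FPKM in mean. Their part in the changes of other genes was not tested.

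On the scale of FPKM, a few genes accounted for much of the exchange of RNA between the days. Besides Fabp4 and mitochondrially encoded genes, whose levels are not ranked here, the largest gains were those of a short model within Ftl1 (Gm22133), Selenop, a selenium carrier protein that rose from 5076 to 10539 FPKM, Scd1, Acsl1 and Cidec. The mitochondrial 16S rRNA mt-Rnr2 was at 122, 109 and 116 FPKM on day 0 and 3098, 3335 and 3211 FPKM on day 3. The largest loss was that of Gpx3, extracellular glutathione peroxidase, at 22464, 22286 and 22131 FPKM on day 0 and 4842, 4890.3 and 4942 FPKM on day 3 (log2 fold change -2.19 ± 0.0283, adjusted p = 1.6e-08), followed by Txnrd1, thioredoxin reductase, from 17254 ± 699 to 7005 ± 127 FPKM. Gpx3 took 3.11% of the summed FPKM on day 0 and 0.600% on day 3. A short model within Col3a1 (Gm47302), Actb, Col3a1, Sparc, Thbs1, Ctgf and Timp1 were also among the 10 largest losses. The short models share reads with their host genes and are uncertain.

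By fold, the 12 named genes that rose most were Cidec, Elovl3, Thrsp, Gpd1, Cox7a1, Cpt1b, Chchd10, Sptlc3, Acsl1, Scd1, Agpat2 and Aldh1a7. Those not yet described are Chchd10, a mitochondrial intermembrane protein, at 5.44, 6.28 and 6.66 FPKM on day 0 and 484, 548 and 555 FPKM on day 3 (86.3-fold), Sptlc3, a serine palmitoyltransferase subunit of sphingolipid synthesis, at 0.108, 0.0218 and 0.0942 FPKM on day 0 and 80.7, 79.1 and 75.4 FPKM on day 3, and Aldh1a7, an aldehyde dehydrogenase, at 7.6, 6.2 and 8.0 FPKM on day 0 and 442, 457 and 453 FPKM on day 3. The 12 that fell most were Il1rl1, Timp3, Serpinb2, Aldh1a3, Thbs1, Ch25h, Tnc, Ctgf, Inhba, Sema7a, Ptgs2 and Tm4sf1. Aldh1a3, which makes retinoic acid, fell from 183 ± 6.29 to 2.47 ± 0.416 FPKM and Ch25h, which makes 25-hydroxycholesterol, fell from 107 ± 6.74 to 2.08 ± 0.428 FPKM. Serpinb2, the plasminogen activator inhibitor PAI-2, fell from 78.8 ± 1.62 to 0.418 ± 0.287 FPKM. Aldehyde dehydrogenase genes of the same family were thus among the largest rises and the largest falls.

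Fewer genes were called over the same 3 days in visceral white cultures. In vWAT siCtrl, which shares no library with BAT siCtrl, 3519 of 13368 tested genes (26.3%) were called higher and 3201 (23.9%) lower. Over 12501 genes tested in both depots the log2 fold changes correlated with Pearson's r of 0.765 and Spearman's rho of 0.74, a description across genes that are no independent replicates. Genes higher in both numbered 2497, which is 67.2% of those higher in BAT and 75.5% of those higher in vWAT. Genes lower in both numbered 2414, or 54.7% of those in BAT and 81.7% of those in vWAT. Opposite calls were made for 312 genes, 249 of them lower in BAT and higher in vWAT.

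**Figure D5:**
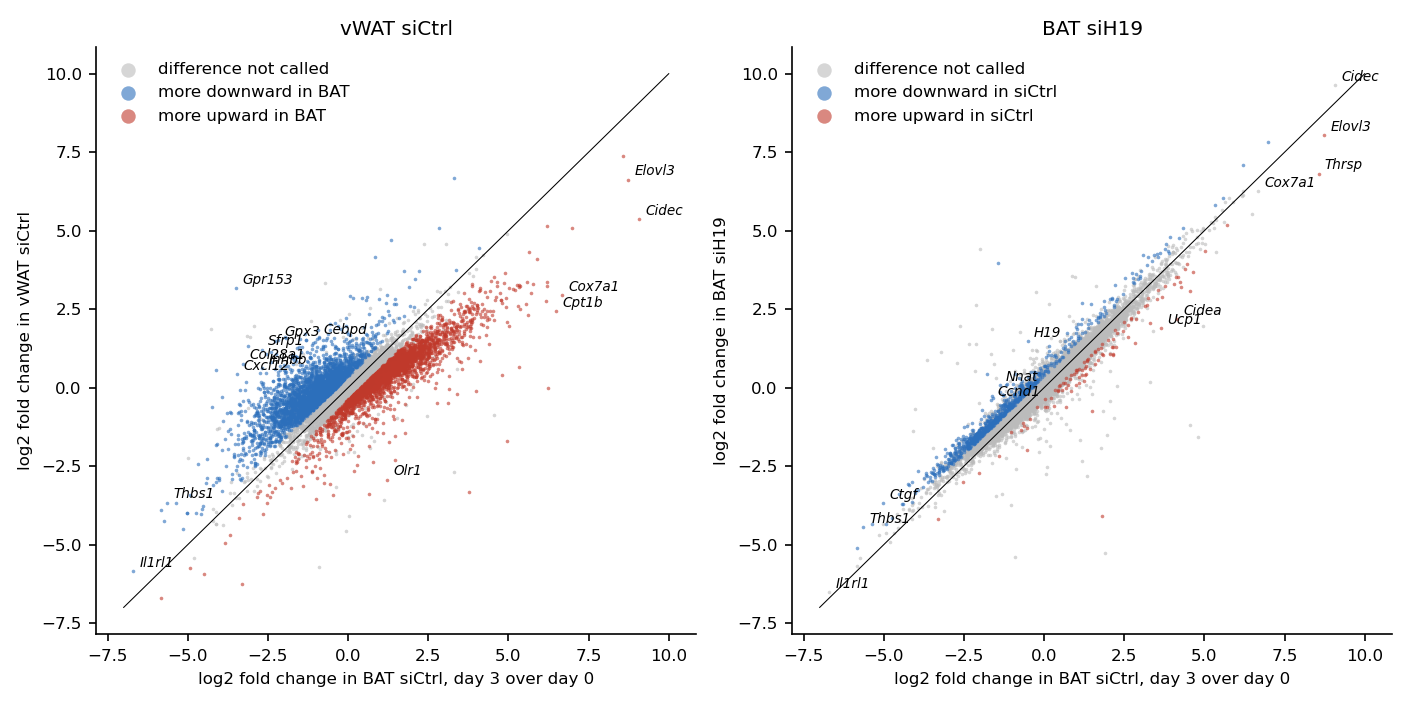
Log2 fold change from day 0 to day 3 in BAT siCtrl (horizontal) against that in vWAT siCtrl (left panel, vertical) and in BAT siH19 (right panel, vertical), one point a gene tested in both, with genes of a called difference coloured. The points lie closer to the diagonal in the right panel (Pearson's r 0.957) than in the left one (0.765).

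An interaction term of depot and day over the 12 siCtrl libraries tested how far the depots differed. Of 14111 genes, 2966 (21.0%) changed more upward in BAT and 3392 (24%) more downward. Since the media differed too, depot and medium cannot be told apart. Fatty acid oxidation genes changed more upward in BAT in 20 of 20 cases and TCA genes in 24 of 25. Lipid droplet genes did so in 18 of 19 and mitochondrial ribosome genes in 66 of 78. None of these lists held a gene called more downward. The median log2 fold change of fatty acid oxidation genes was 3.45 in BAT and 1.67 in vWAT, and that of the mitochondrial ribosome 1.32 and 0.61. The 13 mitochondrially encoded mRNAs had medians of 2.1 and 1.3, with 11 called more upward in BAT. Both depots thus moved the same way in these lists, by a larger step in BAT.

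Single genes show the depot difference more sharply. Cidea stayed near 0 in vWAT, from 0.0423 to 0.040 FPKM, and its interaction was 4.16 ± 0.187 (adjusted p = 2.6e-08) on the log2 scale. Dio2 fell in vWAT, from 15.2 to 2.72 FPKM, against its rise in BAT, and Cpt1b and Cox7a1 rose in vWAT by 2.44 and 2.95 on the log2 scale against 6.48 and 6.66 in BAT, with interactions of 4.04 ± 0.269 (adjusted p = 4.7e-07) and 3.72 ± 0.472 (adjusted p = 6.4e-05). Elovl3 and Thrsp rose steeply in both depots, by 6.63 and 7.37 in vWAT.

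Downward, 22 of 25 smooth muscle genes, 28 of 33 other matrix proteins and 18 of 26 collagens changed more downward in BAT, against none, none and 3 more upward. Among all genes of the interaction fit 24% changed more downward in BAT and 21.0% more upward. Cnn1 fell by 4.23 on the log2 scale in BAT and by 0.60 in vWAT, an interaction of -3.63 ± 0.332 (adjusted p = 5.2e-06). Col3a1 fell in BAT but was from 7768 to 8378 FPKM in vWAT (log2 fold change 0.11), an interaction of -2.30 ± 0.0723 (adjusted p = 3.2e-09). Gpr153, an orphan receptor, fell in BAT from 50.5 to 3.65 FPKM and rose in vWAT from 0 to 8.04 FPKM, the largest interaction of a named gene in either direction. Sfrp1 and Cxcl12 likewise fell in BAT and rose in vWAT, and Gpx3, the largest loss in BAT, rose in vWAT from 5586 to 15881 FPKM. Mitotic genes changed more downward in BAT in 18 of 41 cases and more upward in none. Their median was -0.54 in BAT and -0.23 in vWAT.

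In the H19 knockdown cultures the targeted RNA was at 2.82, 5.2 and 5.05 FPKM on day 0 and 12, 12.1 and 16.9 FPKM on day 3, below all BAT siCtrl libraries. Their changes from day 0 to day 3 correlated with those of BAT siCtrl across genes, with a Pearson's r of 0.957 and a Spearman's rho of 0.952 over 12696 genes. In BAT siH19, 3998 of 12962 tested genes (30.8%) were higher and 3859 (29.8%) lower on day 3. Of the genes tested in both, 3446 were higher in both (91.2% of those in siCtrl, 87.2% of those in siH19) and 3586 lower in both (79.3% and 94.7%), with 2 opposite calls. The interaction of siRNA and day over the 12 BAT libraries called 112 of 13575 genes (0.825%) more upward and 764 (5.63%) more downward in siCtrl. Under median-ratio scaling these counts were 199 and 364, so the split between directions rests on the scaling.

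In the main fit, mitochondrial lists held few genes with a called difference between the siRNAs. In complexes I, II, III and V and in the mitochondrially encoded mRNAs no gene had a called interaction. Under median-ratio scaling 1 gene of complex I had one. With that scaling 6 of 25 TCA genes and 2 of 20 fatty acid oxidation genes changed more upward in siCtrl, against 1 and 1 in the main fit. Of 17 lipogenesis genes 8 changed more upward in siCtrl and none more downward, and of 16 brown fat effectors 7 more upward and 1, Ckb, more downward. Other adipocyte lists held more genes called more downward in siCtrl than upward, as did all tested genes (5.63% and 0.825%). Of 16 adipokines 2 changed more upward and 7 more downward. The counts were 2 and 5 of 19 lipid droplet genes, 3 and 5 of 19 PPARγ targets and 1 and 3 of 16 genes of fatty acid uptake. Pparg, Cebpa, Fabp4 and Adipoq were all called more downward in siCtrl, where they rose by less, Adipoq with an interaction of -1.15 ± 0.201 (adjusted p = 0.0062). Their day 0 means were lower in siH19 than in siCtrl, with Pparg at 29.4 against 45 FPKM and Cebpa at 83.1 against 151 FPKM. Fabp4 was at 1084 against 1995 FPKM and Adipoq at 84.4 against 206 FPKM. Day 3 means in siH19 and siCtrl were 125 and 124 FPKM for Pparg and 598 and 656 FPKM for Cebpa. They were 25710.5 and 27822 FPKM for Fabp4 and 1584 and 1760 FPKM for Adipoq. Under median-ratio scaling the lipid droplet list had 2 more upward and 1 more downward, a turn of its direction. The counts were then 3 and 5 for adipokines, 3 and 4 for PPARγ targets and 1 and 2 for fatty acid uptake. Thrsp was from 0.333 to 508 FPKM in siCtrl and from 0.282 to 143 FPKM in siH19, an interaction of 1.74 ± 0.189 (adjusted p = 0.00078). Among lists that fell, 15 of 25 smooth muscle genes and 20 of 28 genes of matrix proteases, inhibitors and crosslinkers changed more downward in siCtrl and none more upward, beside 5.63% of all genes. These counts were 13 and 16 under median-ratio scaling and 12 and 16 with the replicate block. Ctgf fell from 2317 to 71.8 FPKM in siCtrl and from 2505 to 194 FPKM in siH19, an interaction of -1.32 ± 0.168 (adjusted p = 0.0014). Ccnd1 fell by 1.65 on the log2 scale in siCtrl and by 0.40 in siH19, an interaction of -1.25 ± 0.229 (adjusted p = 0.0079).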

How the data were processed

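RNA was poly-A enriched and sequenced by the authors from SVF cultures, and the deposited table holds FPKM values per gene and library, made by the authors with TopHat2 2.0.10 and Cufflinks 2.2.1 on GRCm38.p5 per the submitters' processing notes. STAR, FastQC 0.10.1 and R 3.2.2 are listed there as well. Read counts were not used here and depth per library is unknown, so precision rests on the spread between 3 libraries a group. The labels name a kit that keeps strand and the methods one not described as such, and whether counting used strand is not given in the sources used here, so antisense and overlapping genes are uncertain. FPKM scales each gene by its total share, so a rise of a few abundant genes lowers all others.

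All 24 value columns were mapped to their labels. Symbols of 399 genes, among them the mitochondrial ones, were taken from GENCODE vM21 by Ensembl ID. Genes with at least 1 FPKM in 3 or more libraries of a comparison were fitted with limma 3.58.1 in R 4.3.3 on log2(FPKM + 1) with an intensity trend, 2 groups of 3 libraries at a time, and the differences between depots and siRNAs as interaction terms over 12 libraries. Adjusted p-values are Benjamini-Hochberg values of limma over all tested genes, and a call needs p below 0.05 and 1.3-fold. Summed FPKM of a list is given without a test, since 3 against 3 libraries cannot go below an exact permutation p of 0.1. Gene lists (53) and members were chosen with earlier results of these data known, so their counts describe and do not test. Genes are named if they are in a list of key genes, among the 12 largest rises or falls by fold with at least 5 FPKM in a group, among the 10 largest gains or losses of FPKM, the largest rise or fall of a list, or among the 8 largest interactions each way. Other list members are named as examples with their values in view. Alternatives were another pseudocount, median-ratio scaling, other filters and fold limits, all 24 libraries in one fit, no intensity trend, the replicate number as a block and each library left out. Some genes are not reported here.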

Additional observations from a re-analysis of the deposited data

Results flagged for a closer look

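These genes changed differently from day 0 to day 3 in BAT siCtrl than in a comparison culture, by a limma test of the interaction. Values are the log2 change in BAT siCtrl minus that in the other culture, and all adjusted p-values were at most 0.0465. Genes are the 8 of each direction with the largest difference among called, named genes of at least 5 FPKM in one group.

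Against vWAT siCtrl, the difference was upward for S100a9 (4.89), Cidea (4.16), Olr1 (4.15), Fam83a (4.09), S100a8 (4.06), Cpt1b (4.04), Dio2 (3.77) and Cox7a1 (3.72). The value of S100a9, a neutrophil calprotectin subunit, came from vWAT alone, where it was at 88.9 FPKM on day 0 and 0.0850 FPKM on day 3, while it was listed at 0 in all BAT siCtrl libraries. S100a8, its partner, was at 1.86 and 3.4 FPKM in BAT siCtrl on day 0 and day 3 and from 88.2 to 2.96 FPKM in vWAT, where it was not called (adjusted p = 0.053). Its own rise in BAT siCtrl was not called with all 24 libraries in the fit (adjusted p = 0.45) or without any one day 3 library (0.051 to 0.081). Olr1, a receptor for oxidised lipoproteins, and Fam83a rose in BAT siCtrl, from 12 to 29 FPKM and from 0.715 to 26.2 FPKM.

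The difference from vWAT was downward for Gpr153 (-6.68), Clec3b (-4.69), Ggt5 (-4.44), Folh1 (-4.10), Col28a1 (-4.04), Sfrp1 (-3.90), Cxcl12 (-3.90) and Kng1 (-3.76). Folh1 was at 0.124 and 0.409 FPKM in BAT siCtrl and not tested there, so its value came from a rise in vWAT. The others fell in BAT siCtrl, Clec3b from 23.3 to 0.386 FPKM, Ggt5 from 42.5 to 4.02 FPKM and Kng1 from 6.18 to 0.479 FPKM, and the chemokine gene Cxcl12 from 339 to 29.8 FPKM.

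Against BAT siH19, the difference was upward for Cidea (1.96), Ucp1 (1.75), Thrsp (1.74), Cox8b (1.46), Lyrm9 (1.39), Col7a1 (1.3), Cyp2e1 (1.23) and Fgf21 (1.08). It was downward for the targeted gene H19 (-1.99), Nnat (-1.48), Cxcl1 (-1.35), Ctgf (-1.32), Ccl7 (-1.27), Ccnd1 (-1.25), Cpne2 (-1.24) and Kcnab1 (-1.22). H19 rose in the knockdown cultures, from 4.36 to 13.7 FPKM, and fell in BAT siCtrl, from 130.3 to 89.8 FPKM. Nnat, an imprinted gene, fell from 28.4 to 10.2 FPKM in BAT siCtrl and was from 16.6 to 17.7 FPKM in siH19. Their causes were not tested.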

How the results depend on the processing

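Directions held: of the 8471 calls between day 0 and day 3, none had the opposite direction under the block, the scaling, a pseudocount of 0.1, other fold limits, all 24 libraries or no intensity trend, and 7961 (median-ratio scaling) to 8471 (no minimum fold) of the calls were shared, apart from the limit of 2-fold, which left 2110 higher and 2144 lower. Median-ratio scaling gave 4321 higher and 4080 lower, so that 51.4% of calls were higher against 45.8%, and moved the median of all genes to -0.0049. With 1 library left out, 3392 to 3861 genes were higher and 3938 to 4594 lower. The depot interaction then called 2795 to 2924 genes more upward and 3223 to 3390 more downward in BAT. The siRNA interaction depended more on the settings: 112 more upward and 764 more downward in siCtrl became 199 and 364 with median-ratio scaling, 53 and 409 with the replicate block, and 172 upward without a minimum fold, and with 1 library left out 70 (without BAT siCtrl d3 replicate 2) to 107 and 551 to 723. The median of the adrenergic list turned from 0.09 to -0.0498, -0.127 and -0.0185 without day 3 replicate 1, 2 and 3 and ranged up to 0.398 without a day 0 library, as fewer low genes were tested. Of the named genes' values under the other settings 941 kept their call, with Dio2 and S100a8 lost with all 24 libraries, Top2a lost and Cdkn1a gained with median-ratio scaling, and with 1 library left out 1048 were kept, 13 lost (H19, Dio2, Lamb1, S100a8) and 4 gained (Zic1, Ccnb1, Cdkn1a). Replicate numbers did not pair the libraries (r of deviations -0.0912 to 0.0732), and the replicate block gave 3872 higher and 4576 lower, 8374 of the calls shared. Without counts, depth cannot bound the low genes.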

Other observations

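Genes of the noncoding types of GENCODE vM21 changed in both directions, with 292 of 795 tested called higher, 230 lower and a median log2 fold change of 0.10, beside 3474 and 4277 of 11754 protein-coding genes and a median of -0.12. The type processed transcript among them also holds loci named for protein-coding genes, such as Cct6a and Ptpmt1, so the count is not one of long noncoding RNAs alone. Genes of this paragraph were chosen after their values were seen. Lncbate1, a brown fat lncRNA, was at 0.429, 0.145 and 0.86 FPKM on day 0 and 29.2, 29.8 and 34.7 FPKM on day 3, and Sox6os at 0.40, 0.81 and 1.53 FPKM on day 0 and 24.1, 26.4 and 23.9 FPKM on day 3. Neat1, the scaffold of paraspeckles, rose from 54.2 to 247 FPKM and Firre, an X-linked nuclear lncRNA, from 4.26 to 14.4 FPKM. Meg3 and Rian, maternally expressed RNAs of one imprinted cluster, fell from 78.1 to 14.7 FPKM and from 231 to 30.4 FPKM. Of 13 tested small nucleolar RNA host genes numbered as Snhg 7 fell, 3 rose and 3 were not called. Of all tested genes 35.3% fell and 29.9% rose. Snhg1 fell from 82.8 to 54.9 FPKM and Snhg14 rose from 5.5 to 10.3 FPKM. Antisense RNAs such as Prss23os, which fell from 936 to 156 FPKM, can share reads with the genes they overlap.

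Stress and protein turnover genes changed in both directions. Of 21 unfolded protein and ATF4 stress genes 14 fell and 4 rose (median -0.95), led by the endoplasmic reticulum genes Hspa5 (BiP), from 1610.1 ± 23.4 to 393 ± 10.6 FPKM, Herpud1, from 122 ± 7.02 to 21.3 ± 1.3 FPKM, and Creld2, from 103 to 22.1 FPKM. Proteasome subunits rose in 24 of 37 tested genes and fell in 2, the immunoproteasome subunits Psmb8 and Psmb9, from 14.4 to 2.92 FPKM and from 2.99 to 1.28 FPKM. Of 23 NRF2 and antioxidant genes 9 (39.1%) rose and 11 (47.8%) fell, beside 29.9% and 35.3% of all tested genes. Catalase (Cat), Sod1 and the mitochondrial Sod2 rose from 52.2 to 377 FPKM, from 337 to 1518 FPKM and from 24.1 to 124 FPKM. The extracellular Sod3 and the cytosolic Txnrd1 fell, Sod3 from 87.7 to 28.7 FPKM.

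Of 12 genes often used as references 5 (41.7%) rose and 4 (33.3%) fell, near the 29.9% and 35.3% of all tested genes, with Gapdh going from 276 to 647 FPKM, Hprt going from 85.6 to 204 FPKM, B2m going from 669 to 299 FPKM and Tbp going from 18.9 to 12.4 FPKM. Ywhaz, Ppia and Rplp0 were not called, Ywhaz at 174 and 176 FPKM on day 0 and day 3.

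In promoters, GGAATG, a TEAD element, was found on either strand in 10 of 16 genes of the YAP, TAZ and TEAD list with a promoter (62.5%), in 11 of 20 smooth muscle genes (55.0%) and in 14.2% of all tested genes with one. The CArG box of SRF was searched in the strict form CCWWWWWWGG, with W for A or T. It was in 4 of 20 smooth muscle genes (20.0%) and in 1.6% of all. The promoters of Acta2 and Cnn1 had no match to this form, but looser forms were not searched. The Acta2 promoter holds CCCTATATGG, which departs from the strict form by a C in the core, so it is not shown to lack a CArG box. Both motifs were chosen after the values were seen, and a match is a description of letters.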
